A study of Mus musculus with 57 samples.

Results

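Glutamate receptors and the auxiliary subunits that travel with them were read out for 41 of the 45337 genes in the deposited table. The set was chosen by gene symbol alone, and every symbol of the rule was found. It holds 4 AMPA receptor subunits (Gria1 to Gria4), 13 AMPA receptor auxiliary subunits (Cacng2 to Cacng8, Cnih2, Cnih3, Gsg1l, Shisa6, Shisa7 and Shisa9), 7 NMDA receptor subunits (Grin genes), 5 kainate receptor subunits (Grik1 to Grik5), the kainate receptor auxiliary subunits Neto1 and Neto2, 2 delta receptors (Grid genes) and 8 metabotropic receptors (Grm genes).

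AMPA, kainate and NMDA receptors are ligand-gated channels that carry fast excitatory transmission in the cortex, each assembled from the subunits of its own family. Auxiliary subunits such as the TARPs (most Cacng genes), cornichons and Neto proteins set how many channels reach the membrane and how they open, and metabotropic receptors act through G proteins, on the postsynaptic side (such as Grm5) or largely on nerve terminals (Grm4, Grm7, Grm8). Corticospinal neurons are large layer V neurons under strong glutamatergic drive, and excess glutamate signalling is a long-discussed element of amyotrophic lateral sclerosis, the disease in which they degenerate.

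The study profiled RNA of corticospinal neurons (CSN) and of cells labelled only as control cells, both from mouse brain, in 57 libraries. Donors were wild type or carried the Sod1G86R transgene, a mutant superoxide dismutase 1, and were 30, 60, 90 or 105 days old, where the unit was inferred from bare numbers in the titles. In that order of ages, Sod1G86R CSN gave 3, 4, 4 and 2 libraries and wild-type CSN gave 4 at each age, while control cells gave 3, 3, 4 and 4 from Sod1G86R and 4, 2, 4 and 4 from wild type. The labels number 32 animals, give neither the transgene's promoter nor how cells were isolated, and do not say whether wild-type animals were littermates. Libraries of a group carry different animal numbers, but nothing else says that they are separate animals, and if they are not, p-values measure only a spread that may be technical.

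Reads recovered from the normalised values numbered 22.2 to 64.2 M per library. Normalised reads of Sod1, which the transgene also yields, were 1806 to 4562 in wild-type and 80216 to 172179 in Sod1G86R CSN, and 1611 to 4244 and 38567 to 155479 in control cells, so every library matched its genotype label. In wild type, 12 of 13 CSN markers were higher in CSN than in control cells and 1 was lower, and 11 of 12 upper-layer and callosal neuron markers were lower. Control cells also held far more glial and vascular RNA. All 10 oligodendrocyte, all 7 oligodendrocyte precursor and all 10 microglia markers and 9 of 10 astrocyte markers were lower in CSN. So were 9 of 10 endothelial and mural cell markers. The summed oligodendrocyte markers were 4239.9 to 328893 normalised reads in wild-type CSN and 127494 to 2270630.0 in control cells, the astrocyte markers 13051 to 93564 and 20052 to 306326, and the GABAergic neuron markers 425 to 3666 and 3451 to 15192. No marker had a median of 0 in either cell type. Mitochondrially encoded genes took 5.68 to 18.1% of wild-type CSN libraries and 0.811 to 2.55% of wild-type control libraries, with no overlap.

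Levels were compared between genes per kilobase of exonic sequence, counted over all annotated exons of a gene. Which transcripts were expressed was not resolved, so the order of genes and the shares can depend on that length. On this measure AMPA receptor RNAs led the receptor subunits of wild-type CSN. Gria2, the subunit that makes the channel impermeable to calcium once edited, stood at 3491 ± 660.2 normalised reads per kilobase (mean ± SD, n = 16 in this and the next sentences). Gria3 stood at 2744 ± 393, Gria1 at 1922 ± 195 and Gria4 at 203 ± 35.5. The obligatory NMDA subunit Grin1 followed Gria1 at 1461 ± 294, above Grin2a at 671 ± 106 and Grin2b at 528 ± 112, a neighbouring pair whose levels per kilobase overlapped. Grm5 was the most abundant metabotropic receptor at 1091 ± 155, Grik5 the most abundant kainate subunit at 923 ± 145, and Neto1, at 525 ± 97.9, lay above Neto2 at 151 ± 32.7.

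Among the auxiliary subunits the cornichons Cnih2 and Cnih3, which bind AMPA receptors in the secretory pathway and at the surface, stood at 5247 ± 2018 and 2241 ± 308 normalised reads per kilobase, and the mean of Cnih2 was the highest of all 41 genes. Cnih2 was also uneven, from 2717 to 9149 per kilobase. The TARP Cacng3 stood at 973 ± 158 and Cacng2, also called stargazin, at 312 ± 39.01. At the other end, Grik1, Grin3b, Grm6, Shisa6, Cacng5 and Grin2c had means under 10 per kilobase. Grin3b was 0 to 28.1 (median 6.47) normalised reads in wild-type CSN and Grm6 was 0 to 73.3 (median 8.57), and both were below the level needed for testing, which was 34.6 normalised reads in at least 3 libraries. Grin3b also shares 1059 exonic bases, 32.1% of its length, with Tmem259 on the opposite strand. Because the library kit is unstranded, those reads cannot be assigned to 1 of the pair, and the same holds for 13.5% of Grin1, which Grin1os overlaps at a mean of only 36.3 normalised reads.

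The first comparison set wild-type CSN against wild-type control cells, as the unweighted mean of the 4 ages. Of the 39 genes tested, 35 differed (limma adjusted p under 0.05), 23 of them higher and 12 lower in CSN. Among all 22032 genes tested, 56.3% passed, 26.8% as higher and 29.5% as lower, so most genes of the table separated these cells. The median log2 fold change of the 39 was 0.60, against -0.03 over all genes, and for 10 of them no CSN library overlapped a control library, where 4.38% of all genes tested had no overlap. In bulk samples fewer cells of a type and less RNA per cell cannot be told apart.

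**Figure D1:**
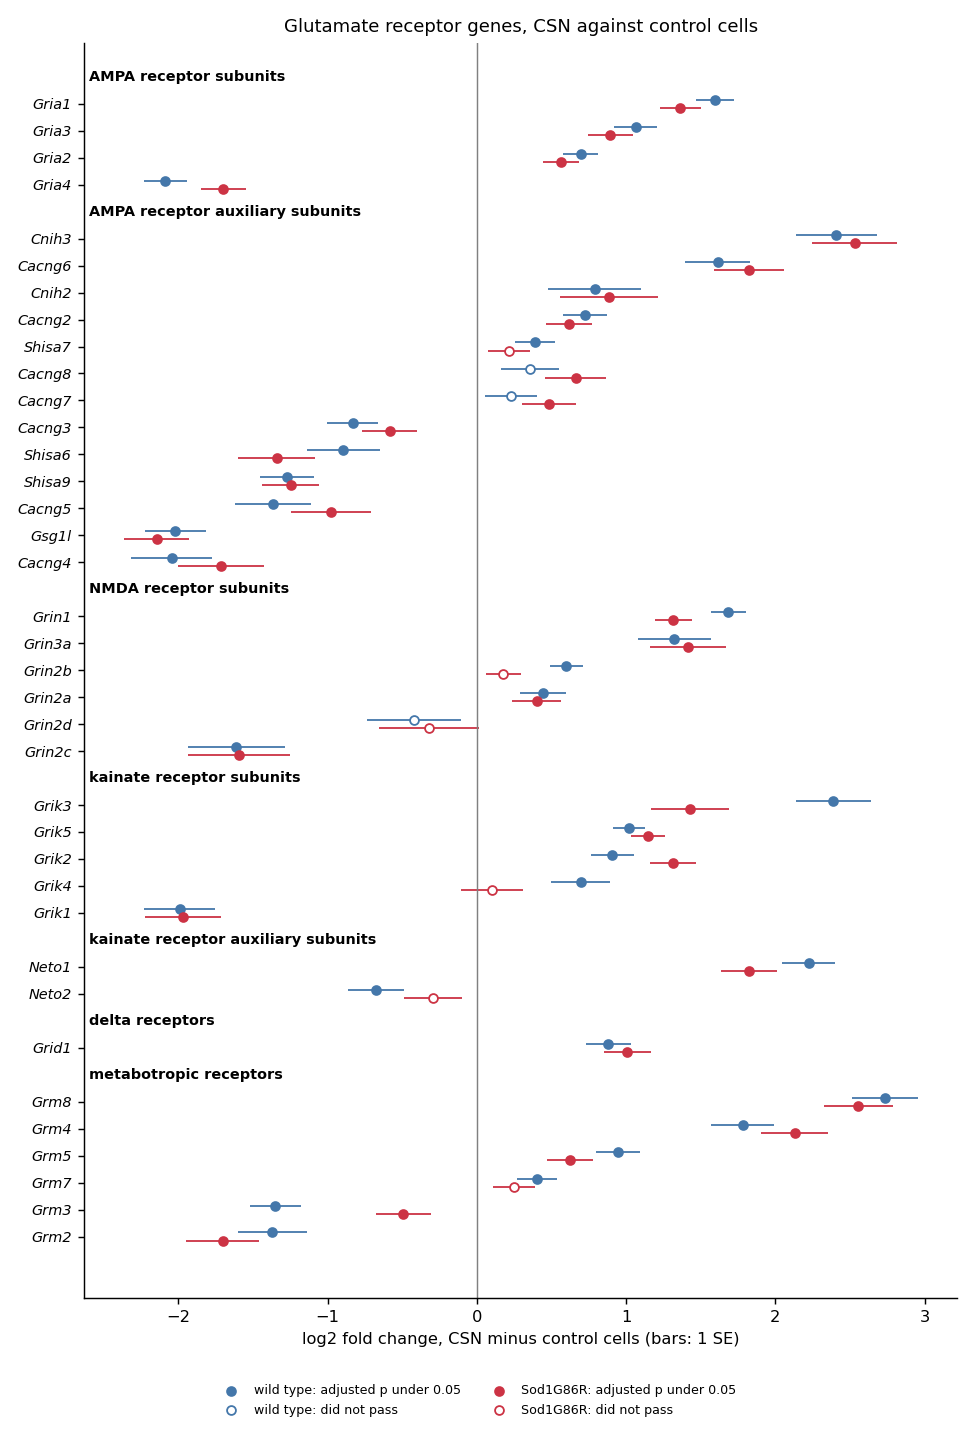
Log2 fold change between CSN and control cells (x axis, positive when higher in CSN, bars 1 SE) for 37 of the 39 tested glutamate receptor genes, in rows grouped by role, with wild type in blue and Sod1G86R in red. Filled points passed at an adjusted p under 0.05: of the genes drawn 34 did in wild type and 31 in Sod1G86R, and the 29 that passed in both lie on the same side of 0 in both.

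The AMPA receptor subunits moved apart. Gria1 (chromosome 11, 57011387 to 57330244, plus strand, as all coordinates on GRCm38) was 9835 to 14086 (median 11717) normalised reads in the 16 wild-type CSN libraries and 1792 to 7361 (median 3959) in the 14 control libraries. Every CSN library lay above every control library. The difference was 3.02-fold (log2 1.60 ± 0.13 SE, limma adjusted p = 6.20e-15). Gria3 (chromosome X, 41400854 to 41678601, plus strand), at 20394 to 34282 (median 27355) against 7339 to 28841 (median 13349.8), was 2.09-fold higher (log2 1.07 ± 0.14 SE, limma adjusted p = 1.31e-08), and Gria2 (chromosome 3, 80681450 to 80802835, minus strand), at 40606 to 77712 (median 53684) against 20329.7 to 52448 (median 36189), was 1.62-fold higher (log2 0.70 ± 0.12 SE, limma adjusted p = 1.40e-06). For both, all 16 CSN libraries were above the control mean while the ranges overlapped. Gria4 (chromosome 9, 4417896 to 4796234, minus strand), a subunit known from interneurons and from thalamic and young neurons, went the other way, with 817 to 1632 (median 1299) in CSN and 3177 to 8043 (median 5521) in control cells. No libraries overlapped, and Gria4 was 4.25-fold lower in CSN (log2 -2.09 ± 0.14 SE, limma adjusted p = 3.10e-17), which was the smallest p of the whole set.

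Within AMPA receptor RNA of wild type the shares of Gria1 and Gria4 were far apart between the cell types, and a difference in the share of Gria2 was not detected. Taken per kilobase, Gria2 made up 34.2% to 48.3% (median 41.9%, mean 41.6% ± 4.43 SD, n = 16) of Gria1 to Gria4 RNA in wild-type CSN and 34.5% to 51.01% (median 39.97%, mean 41.9% ± 4.92 SD, n = 14) in control cells. The difference within ages was -0.92 percentage points (two-sided permutation test, p = 0.586, adjusted p = 0.880 over 12 share tests), smaller than the spread between libraries. Gria1 made up 23.1% ± 2.16 of the total in CSN and 13.1% ± 2.40 in control cells, and Gria4 made up 2.42% ± 0.32 and 17.8% ± 6.18 (SD), given as descriptions without a test. The highest Gria4 share in wild-type CSN was 2.92%, and the lowest in a wild-type control library was 8.21%.

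**Figure D2:**
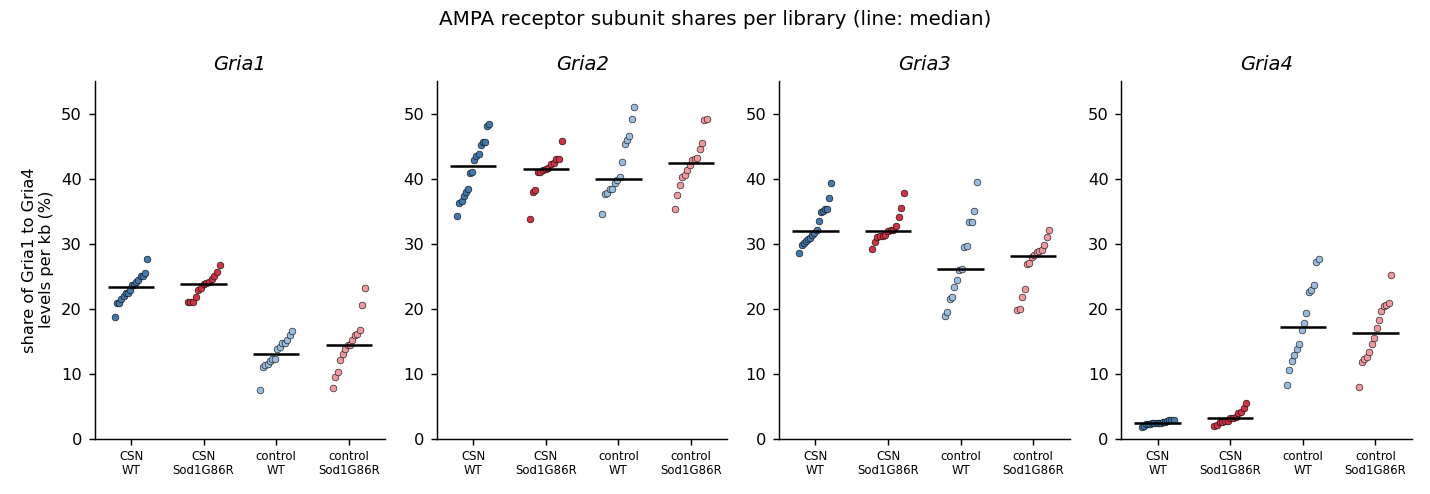
Share of each AMPA receptor subunit in the summed Gria1 to Gria4 level per kilobase (y axis, %), 1 point per library and a line at the median, for CSN and control cells of both genotypes. Gria2 takes a mean of 41.6% in CSN and 41.9% in control cells of wild type, while in wild type the Gria1 and Gria4 shares of the cell types do not overlap, Gria4 with a mean of 2.42% against 17.8%. In Sod1G86R the Gria1 shares overlap, 20.94% to 26.7% in CSN and 7.73% to 23.15% in control cells.

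Of the 13 AMPA receptor auxiliary subunits, 5 were higher in CSN, 6 were lower and 2 did not pass. Cnih3 (chromosome 1, 181352628 to 181460641, plus strand) was 4658 to 7900.2 (median 6209) normalised reads in CSN and 137 to 3317 (median 1102) in control cells. The groups did not overlap, and Cnih3 was 5.32-fold higher in CSN (log2 2.41 ± 0.27 SE, limma adjusted p = 1.12e-10). The other higher members were Cacng6, a calcium channel gamma subunit that is not counted among the TARPs (log2 1.61, at a median of only 151 in CSN), the TARP Cacng2 (0.73), Cnih2 (0.79) and Shisa7 (0.39). The Cnih2 call was lost with edgeR (adjusted p = 0.0732), with DESeq2 (0.0704), without the filter on low genes (0.0526) and with the glial marker level as a covariate (0.555). Without control-cell replicate 9 at 105 days, 2 at 60 days or 3 at 90 days it did not pass, with an adjusted p of up to 0.0626.

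By p-value the lower members were led by Gsg1l (chromosome 7, 125878420 to 126082411, minus strand), a claudin-like AMPA receptor partner that slows recovery from desensitisation. It was 159 to 428 (median 334) in CSN and 825 to 3363 (median 1186) in control cells, without overlap, and 4.05-fold lower (log2 -2.02 ± 0.21 SE, limma adjusted p = 7.94e-12). Shisa9, also known as CKAMP44, did not overlap either (log2 -1.27). Cacng4 (-2.04), Cacng5 (-1.37), Shisa6 (-0.89) and Cacng3 (-0.83) were lower with overlapping libraries, and Cacng4 and Cacng5 are TARPs that glial cells are known to express. Values of Cacng8 (log2 0.36, adjusted p = 0.11) and Cacng7 (0.23, adjusted p = 0.262) did not pass.

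NMDA receptor subunits were mostly higher in CSN, 4 of 6 tested, with 1 lower. Grin1 (chromosome 2, 25291181 to 25319187, minus strand) was 10456 to 21609 (median 13991) normalised reads in CSN and 2542 to 8591 (median 4764) in control cells. The lowest CSN library exceeded the highest control library, and the difference was 3.21-fold (log2 1.68 ± 0.12 SE, limma adjusted p = 3.46e-17). Smaller differences were measured for the glutamate-binding subunits. Grin2b (chromosome 6, 135713233 to 136173511, minus strand) was 9825 to 19679.5 (median 12741) in CSN and 3564 to 14333 (median 9938) in control cells (log2 0.60 ± 0.11 SE, limma adjusted p = 1.03e-05). Grin2a (chromosome 16, 9567898 to 9995560, minus strand) was 8671 to 15538 (median 12146) and 3923 to 19863 (median 9868) (log2 0.45 ± 0.15 SE, limma adjusted p = 0.0119). For Grin2a only 12 of 16 CSN libraries lay above the control mean, and without control-cell replicate 1 at 60 days its adjusted p was 0.0863. The sign of Grin2a turned relative to 15 pan-neuronal genes (-0.83) and with the glial marker level (-0.51) or the mitochondrial share (-0.27) as a covariate. Grin2b turned relative to the pan-neuronal genes (-0.68) and with the mitochondrial share (-0.0084).

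The share of Grin2a in Grin2a plus Grin2b RNA per kilobase was not shown to differ between the cell types. It was 42.2% to 65.3% (median 55.9%, mean 56.05% ± 6.69 SD, n = 16) in wild-type CSN and 49.3% to 67.3% (median 59.1%, mean 58.6% ± 5.92 SD, n = 14) in control cells, a difference of -2.61 percentage points within ages (permutation test, p = 0.246, adjusted p = 0.591). Grin3a, a glycine-binding subunit of low-conductance receptors, was higher in CSN (log2 1.32). Grin2c was lower (-1.61) at a median of 14.4 normalised reads in CSN, and Grin2d did not pass (-0.42, adjusted p = 0.26). Grin2c is known from astrocytes and cerebellar granule cells, and Grin2d from interneurons.

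All 5 kainate receptor subunits differed, 4 of them higher in CSN. Grik3 (chromosome 4, 125490700 to 125714173, plus strand) was 578 to 1608 (median 1067) normalised reads in CSN and 45.99 to 961 (median 182) in control cells, and 5.24-fold higher (log2 2.39 ± 0.25 SE, limma adjusted p = 1.64e-11). Grik5 (chromosome 7, 25009849 to 25072346, minus strand), a high-affinity subunit that needs a partner to form a channel, was 3687 to 6342 (median 4718) against 1597 to 3986 (median 2176) and 2.03-fold higher (log2 1.02 ± 0.11 SE, limma adjusted p = 2.64e-11). In both, the ranges overlapped although all 16 CSN libraries lay above the control mean. Grik2 (log2 0.91) and Grik4 (0.70) were higher too. Grik1 (chromosome 16, 87895900 to 88290265, minus strand), a subunit typical of GABAergic interneurons, was 1.10 to 38.5 (median 13.9) in CSN and 16.8 to 807 (median 143) in control cells, 3.97-fold lower on the log2(value + 34.6) scale (log2 -1.99 ± 0.24 SE, limma adjusted p = 7.76e-10). The CSN values of Grik1 lie near the limit of what these libraries can measure.

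The kainate receptor auxiliary subunits Neto1 and Neto2 went opposite ways. Neto1 (chromosome 18, 86394952 to 86506718, plus strand) was 2939.6 to 5698 (median 4539) in CSN and 251 to 1809 (median 1023) in control cells, with no overlap and a 4.67-fold higher level (log2 2.22 ± 0.18 SE, limma adjusted p = 3.64e-15). Neto2 was lower in CSN (log2 -0.67, adjusted p = 0.00176). Grid1, a delta receptor, of a family that binds cerebellins and organises synapses, was higher by a log2 of 0.88.

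Among the metabotropic receptors Grm4, Grm5, Grm7 and Grm8 were higher in CSN, and Grm2 and Grm3 were lower. Grm8 (chromosome 6, 27275119 to 28135178, minus strand), a presynaptic receptor that inhibits release, was 1679 to 3296 (median 2108) in CSN and 142 to 874 (median 313) in control cells. Its libraries did not overlap, and the difference was 6.66-fold (log2 2.74 ± 0.22 SE, limma adjusted p = 3.83e-15). This was the largest of the 39 genes on the log2 scale of the tests. On that scale a constant added to every value shrinks the differences of low genes. Medians of some low genes were further apart in ratio, such as Cacng6 (151 in wild-type CSN, 9.17 in control cells), Cacng5 (8.56 and 98.1) and Grik1 (13.9 and 143). Grm4 (chromosome 17, 27422387 to 27521403, minus strand), of the same group of receptors as Grm8, was 573 to 986 (median 767) against 70.4 to 429 (median 217). Its libraries did not overlap either (log2 1.78 ± 0.21 SE, limma adjusted p = 4.70e-10). Grm7, the remaining member of that group tested, was higher by a log2 of 0.40. Grm2 (-1.37) and Grm3 (-1.35), which share a group and of which Grm3 is also made by astrocytes, were lower, and Grm5, which couples to phospholipase C, was higher by a log2 of 0.94.

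**Figure D3:**
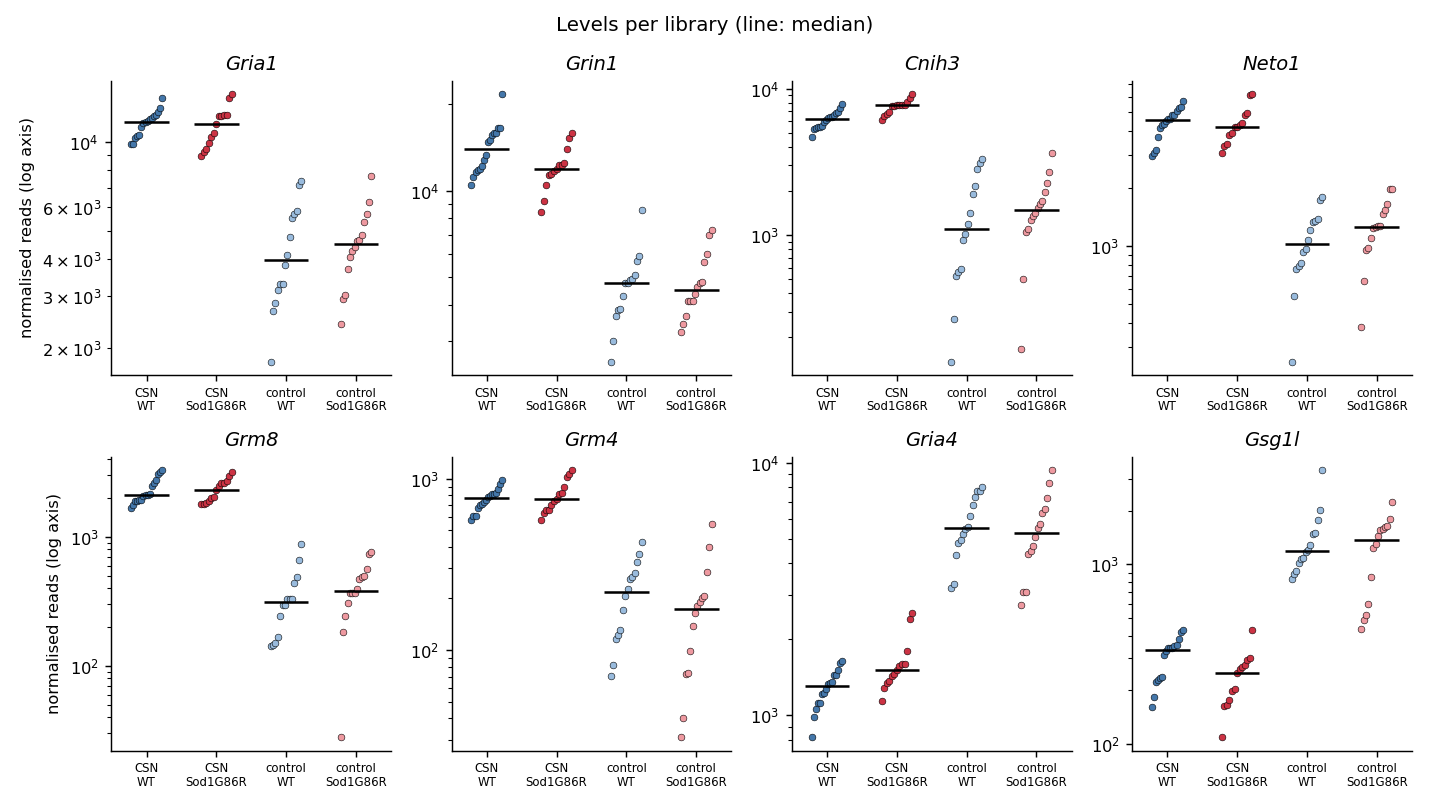
Normalised reads (y axis, log scale) of 8 genes in every library, 1 point per library and a line at the median, for CSN and control cells of both genotypes. Gria1, Grin1, Cnih3, Neto1, Grm8 and Grm4 are higher in all wild-type CSN libraries than in any wild-type control library, and Gria4 and Gsg1l are lower.

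Libraries from Sod1G86R animals allowed the same contrast to be made on other animals and other libraries. Of 39 genes tested, 32 passed, 21 higher and 11 lower, where 55.5% of all genes passed, 24.9% as higher and 30.6% as lower. In both genotypes 30 passed with the same sign, 19 higher and 11 lower, and 0 with opposite signs. The share of all genes that passed in both with the same sign was not counted, so this is not shown to be particular to the receptors. Grin2b, Grik4, Neto2, Grm7 and Shisa7 passed in wild type, and Cacng7 and Cacng8 in Sod1G86R. Whether these 7 differ between genotypes is the question of the test of the difference, given after the genotype comparisons.

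The 8 smallest p-values in Sod1G86R belonged to Gria4, Grm8, Grin1, Grik5, Gria1, Gsg1l, Neto1 and Grm4, all among the 12 smallest in wild type. Gria4 was 1138 to 2532 (median 1514) normalised reads in the 13 Sod1G86R CSN libraries and 2744 to 9362 (median 5287) in the 14 control libraries (log2 -1.70 ± 0.15 SE, limma adjusted p = 2.12e-13). Gsg1l was 108 to 430.1 (median 247) and 435 to 2231 (median 1376) (log2 -2.15 ± 0.22 SE, limma adjusted p = 8.15e-12). Both were lower in CSN, and the other 6 were higher. Grm8 was 1792 to 3158 (median 2306) in CSN and 27.995 to 769 (median 382) in control cells (log2 2.56 ± 0.23 SE, limma adjusted p = 2.47e-13), and Grm4 572 to 1124 (median 765) and 30.96 to 545 (median 173) (log2 2.13 ± 0.22 SE, limma adjusted p = 1.85e-11). Grin1 was 8439.8 to 15827 (median 11856) and 3219 to 7303 (median 4491) (log2 1.32 ± 0.12 SE, limma adjusted p = 8.01e-13). Gria1 and Neto1 were higher as well, each over 2-fold. Gria1 was 8936 to 14517 (median 11504) and 2401 to 7645 (median 4496) (log2 1.36 ± 0.14 SE, limma adjusted p = 5.81e-12), and Neto1 3047 to 6169 (median 4186) and 381 to 1987 (median 1266) (log2 1.82 ± 0.19 SE, limma adjusted p = 1.21e-11). Grik5 was 3323 to 6589 (median 4974) and 1697 to 3097 (median 2069) (log2 1.15 ± 0.11 SE, limma adjusted p = 5.45e-12).

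How many of these genes count as higher depended on the scale. Relative to 15 pan-neuronal genes (a setting added once values were known) the median of all genes moved from -0.03 to -1.31 in wild type and from -0.04 to -1.27 in Sod1G86R. On that scale 8 members were higher and 24 lower in wild type, against 23 and 12 by normalised reads, and 6 higher and 24 lower in Sod1G86R, against 21 and 11. Of all genes tested, 1.92% were higher and 87.6% lower in wild type on that scale, and 1.98% and 86.6% in Sod1G86R. Those higher in wild type on both scales included Gria1, Grin1, Cnih3, Neto1, Grik3, Grm4 and Grm8, at 0.32, 0.41, 1.13, 0.95, 1.11, 0.50 and 1.46 on the pan-neuronal scale. Gria2 and Gria3 changed sign, to -0.58 and -0.21. The summed share of the 41 genes in a library was 0.477 to 0.731% in wild-type CSN and 0.237 to 0.541% in control cells.

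Glial marker level and mitochondrial share both split the cell types without overlap in wild type. The mean log2 level of the glial markers was 7.67 to 10.84 in CSN and 10.96 to 14.17 in control cells. With that level as a covariate 18 genes passed in wild type, 11 higher and 7 lower, and with the mitochondrial share 15 did, 10 higher and 5 lower. Of all genes tested 14.3% passed with the glial level and 23.5% with the mitochondrial share, down from 56.3%. The part of glial RNA and of RNA composition in these differences cannot be told apart from cell type in this design.

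Partners of the receptors were counted in 5 lists, chosen with earlier results of these data known, by normalised reads, where 26.8% of all genes were higher and 29.5% lower. The lists were not counted on the pan-neuronal scale. Of 25 postsynaptic scaffolds and kinases, 17 were higher in wild-type CSN and 4 lower, including Iqsec1 (log2 1.89), Camk2a (1.30) and the AMPA receptor anchor Dlg4 (1.48), with Camk2d the lowest (-3.63). The median of the list was 0.69. Of 24 assembly and trafficking partners, 10 were higher, led by the PDZ protein Grip2 (2.73), and 6 lower, among them Olfm1 (-1.91). Synaptic organisers split evenly, 7 higher and 7 lower of 22: the neurexin Nrxn2 was higher (1.78), and Cbln4 (-3.94) and the pentraxin Nptx1 (-3.56), which clusters AMPA receptors, were lower. G protein signalling genes were higher in 10 and lower in 4 of 18, with the adenylyl cyclase Adcy1 at 1.77. In glutamate transport and supply 5 of 13 were higher and 6 lower, the latter holding the glial genes Slc1a2 (-1.21), Slc1a3 (-3.01) and Glul (-2.52).

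Genotype was compared next within each cell type, as the mean of the 4 ages. In Sod1G86R CSN 5 of 38 receptor genes passed, 1 higher and 4 lower than in wild type. That is 13.2% of the members, where 19.1% of all 19093 genes tested passed, 12.8% as higher and 6.31% as lower. On the log2 scale of the tests, which shrinks the differences of low genes, no member reached a 2-fold difference. No member had libraries without overlap (0.0471% of all genes did), and the median over the 38 was -0.03, against -0.05 over all genes. The core channel subunits, Gria1 to Gria4 and the Grin genes, did not pass, with adjusted p-values from 0.0554 (Gria4, log2 0.30) upwards. At an unadjusted p under 0.05 stood 15 members, a level at which the share of all genes was not counted. Other scalings changed the split: 0 were higher and 8 lower after quantile normalisation, and 4 higher and 3 lower with TMM factors. Of all genes, 1630 were higher and 1040 lower of 19093 after quantile normalisation. With TMM factors 2785 were higher and 1010 lower of 19058.

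**Figure D4:**
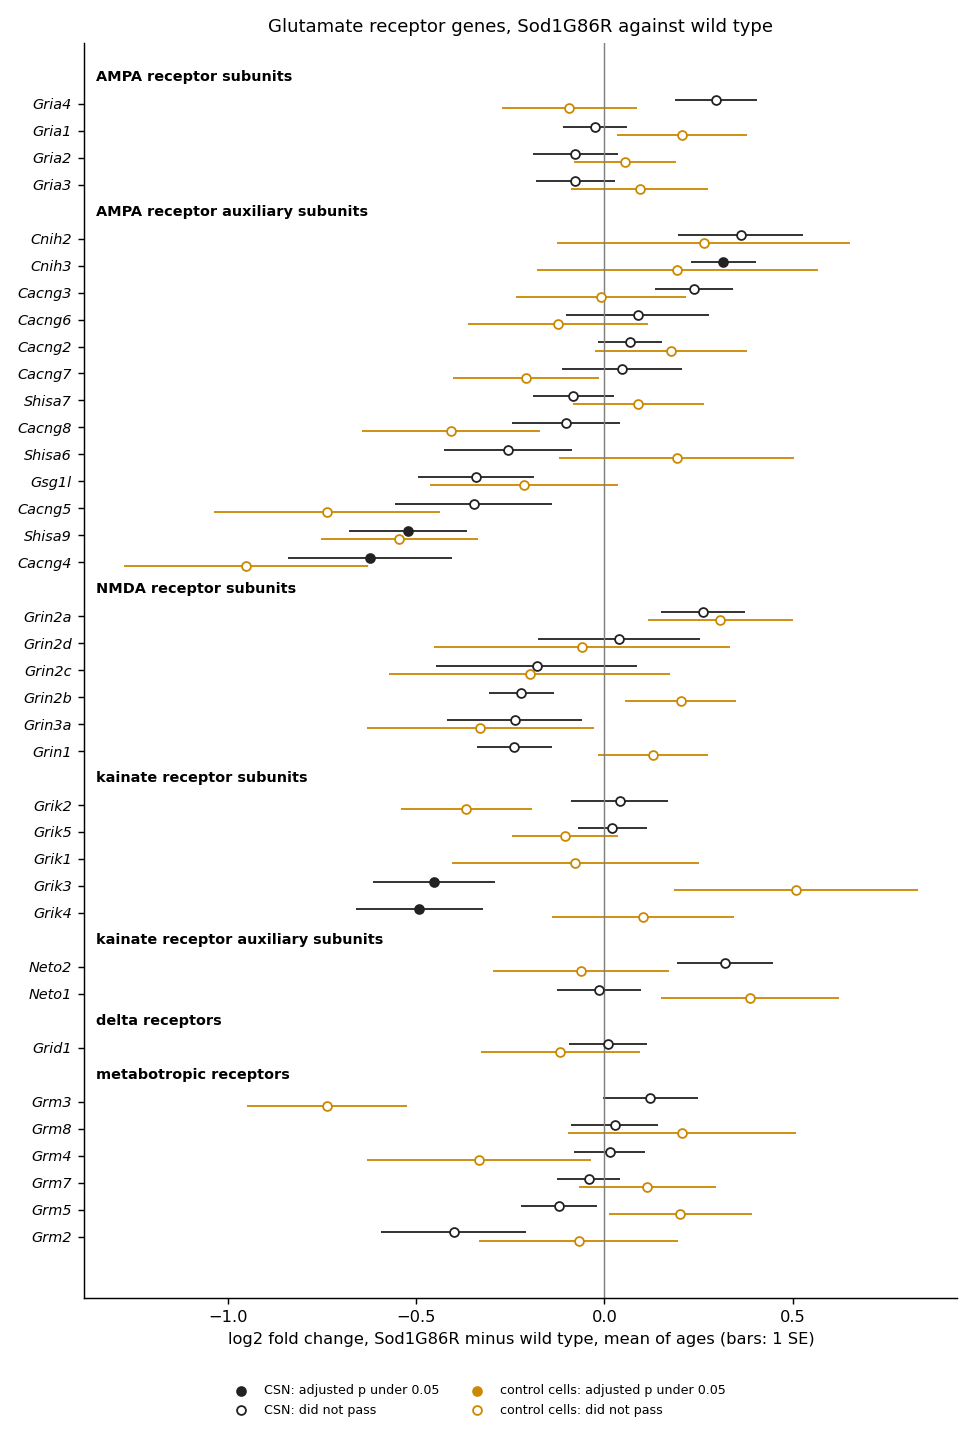
Log2 fold change of Sod1G86R against wild type, mean of the 4 ages (x axis, bars 1 SE), for 36 tested glutamate receptor genes in CSN and 37 in control cells, in rows grouped by role, with CSN in black and control cells in orange. Filled points passed at an adjusted p under 0.05: only Cnih3, Shisa9, Cacng4, Grik3 and Grik4 in CSN did, and no gene in control cells.

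Among the 5, Cnih3 was the one that was higher. It was 6087 to 9146 (median 7709) normalised reads in Sod1G86R CSN and 4658 to 7900.2 (median 6209) in wild-type CSN. The ranges overlapped, with 12 of 13 Sod1G86R libraries above the wild-type mean, and the difference was 1.24-fold (log2 0.32 ± 0.09 SE, limma adjusted p = 0.0106). It passed when any 1 of the 29 libraries was left out, but not after quantile normalisation (log2 0.069, adjusted p = 0.522). Its place among the genes that set CSN apart uses the same wild-type CSN libraries and is no separate evidence.

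Shisa9 (chromosome 16, 11984113 to 12270902, plus strand) was 189 to 650.0 (median 395) in Sod1G86R CSN and 313 to 766 (median 539.8) in wild type. With 12 of 13 Sod1G86R libraries below the wild-type mean it was 1.43-fold lower (log2 -0.52 ± 0.16 SE, limma adjusted p = 0.02). Without Sod1G86R replicate 9 at 105 days the adjusted p was 0.0578. Cacng4 (chromosome 11, 107732357 to 107794557, minus strand) was 17.2 to 114 (median 67.4) and 32.4 to 546 (median 91.9) (log2 -0.62 ± 0.22 SE, limma adjusted p = 0.043). All 13 Sod1G86R libraries were below the wild-type mean, and 11 were below the wild-type median, and the 2 highest wild-type libraries stood at 546 (replicate 9 at 90 days) and 211.

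The kainate subunits Grik4 (chromosome 9, 42518135 to 42944493, minus strand) and Grik3 were the other lower members. Grik4 was 124 to 417 (median 180.4) in Sod1G86R and 215 to 474 (median 289) in wild-type CSN (log2 -0.49 ± 0.17 SE, limma adjusted p = 0.0388). Grik3 was 422 to 1729 (median 818) and 578 to 1608 (median 1067) (log2 -0.45 ± 0.16 SE, limma adjusted p = 0.0487). For each, 10 of 13 Sod1G86R libraries lay below the wild-type mean. Leaving out 1 library ended the call of Grik4 in 13 of 29 cases, of Cacng4 in 18 and of Grik3 in 19.

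The composition of the CSN libraries is given beside these calls. Mitochondrial genes took 3.26 to 10.6% of Sod1G86R and 5.68 to 18.1% of wild-type CSN libraries. Of 10 microglia markers 3 were lower in Sod1G86R CSN (Aif1 at log2 -0.99, Cx3cr1 at -0.74, Gpr34 at -1.50), and their sum was 1351 to 15671 against 3126 to 16534 normalised reads. Of 7 oligodendrocyte precursor markers 2 were lower, Pdgfra (-0.73) and Gpr17 (-0.86), with a sum of 108 to 1829.6 against 90.3 to 2347. Of 10 oligodendrocyte markers 0 passed and 0 were above 0 (median log2 -0.92), with a sum of 8212 to 108844 against 4240 to 328893. Astrocyte markers (median -0.23, 2 of 10 above 0) and endothelial and mural cell markers (-0.49, 0 of 9 above 0) did not pass. Of 13 CSN markers 4 were higher and 0 lower, where 12.8% of all genes were higher. With the mitochondrial share, the glial marker level or the number of detected genes as a covariate, 0 members passed, where 0.131%, 13.3% and 8.29% of all genes did. In that order of covariates the log2 difference was -0.59, -0.49 and -0.41 for Shisa9, 0.16, 0.25 and 0.26 for Cnih3, and -0.37, -0.36 and -0.46 for Cacng4. It was -0.35, -0.50 and -0.37 for Grik3 and -0.18, -0.48 and -0.30 for Grik4. Without a covariate it was -0.52 for Shisa9, 0.32 for Cnih3, -0.62 for Cacng4, -0.45 for Grik3 and -0.49 for Grik4. The difference of Cnih3, Grik3 and Grik4 was smallest with the mitochondrial share. That of Cacng4 was smallest with the glial marker level, and that of Shisa9 with the number of detected genes. Without the 90-day libraries (a setting added once values were known) Shisa9 alone passed (log2 -0.62, adjusted p = 0.0480).

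A subunit share also differed with genotype in CSN. Grin2a made up 53.7% to 71.04% (median 65.04%, mean 63.5% ± 6.29 SD, n = 13) of Grin2a plus Grin2b RNA per kilobase in Sod1G86R CSN. In wild-type CSN it made up 42.2% to 65.3% (median 55.9%, mean 56.05% ± 6.69 SD, n = 16). The ranges overlapped, and the difference within ages was 7.92 percentage points (two-sided permutation test, p = 0.00146, adjusted p = 0.00876 over 12 tests). Without the 90-day libraries, with 9 Sod1G86R and 12 wild-type libraries left, it was 4.39 points and did not pass (permutation test, p = 0.0714, adjusted p = 0.285). Mean shares in Sod1G86R and wild type were 64.7% and 56.5% at 30 days and 56.06% and 56.18% at 60 days. They were 68.49% and 49.98% at 90 days, and 66.64% (2 libraries) and 61.55% at 105 days. Neither gene passed by itself: Grin2a was at log2 0.26 (adjusted p = 0.0943) and Grin2b at -0.22 (adjusted p = 0.0731).

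The Gria2 share in Sod1G86R CSN was 33.8% to 45.9% (median 41.5%, mean 40.99% ± 2.95 SD, n = 13) of Gria1 to Gria4, a difference of -0.72 points from wild type (permutation test, p = 0.660, adjusted p = 0.880).

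By single age, few differences passed. At 30 days 0 of 38 passed (0.0157% of all genes did, 2 members at an unadjusted p under 0.05), at 60 days 0 (0.0314%, 2 members unadjusted) and at 105 days 0 (0.021%, 1 member unadjusted), and edgeR and DESeq2 also called 0 at these ages. The 3 smallest p-values at 30 days were those of Grik3 (log2 -0.92, adjusted p = 0.223), Cnih3 (0.39, 0.312) and Grin2d (0.87, 0.381). At 60 days they were Shisa9 (-0.66, 0.607), Cacng2 (0.33, 0.628) and Grm4 (0.34, 0.646), and at 105 days Cacng4 (-1.16, 0.617), Shisa6 (-0.72, 0.634) and Cnih3 (0.36, 0.639).

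At 90 days Grin2b was the member that passed, 1 of 38, where 4.86% of all genes did and 1.38% as lower. At an unadjusted p under 0.05 stood 10 members, a level at which the share of all genes was not counted. Grin2b was 8871, 9918, 10492 and 10832 normalised reads in the 4 Sod1G86R CSN libraries and 12868, 14674, 18527 and 19679.5 in the 4 wild-type libraries. The groups did not overlap, but the share of all genes without overlap at this age was not counted. Grin2b was 1.62-fold lower in Sod1G86R (log2 -0.69 ± 0.16 SE, limma adjusted p = 0.0236). At the other ages wild-type CSN ranged from 10510.2 to 15122 at 30 days, 11674 to 13858 at 60 days and 9825 to 11096 at 105 days, and Sod1G86R CSN from 8832 to 13843, 11645 to 15266 and 10562 to 10566. The genotypes overlapped at each of these ages. The call was lost when any of 5 of the 8 libraries was left out (Sod1G86R replicates 3, 5 and 6, wild-type replicates 7 and 9), with an adjusted p of up to 0.121. It was also lost with the mitochondrial share as a covariate (0.243) and without the filter on low genes (0.0813). Of all genes tested, only 4 of 19093 passed at this age with that covariate and 4 of 44478 without the filter.

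**Figure D5:**
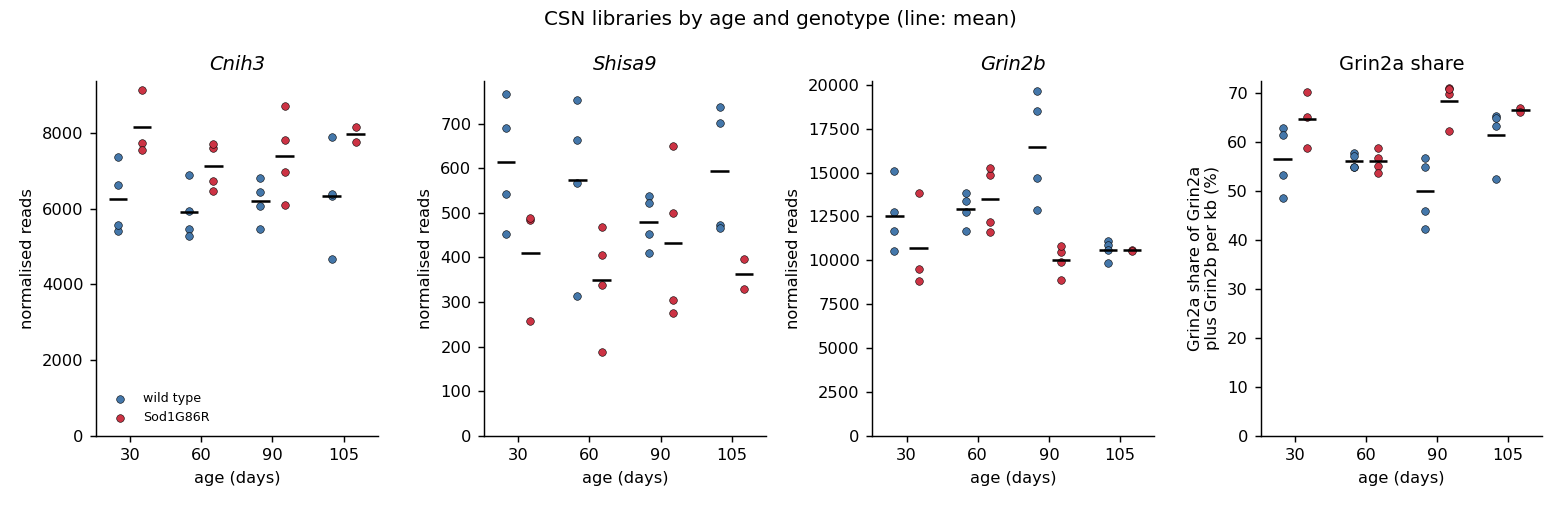
Normalised reads of Cnih3, Shisa9 and Grin2b and the Grin2a share of Grin2a plus Grin2b per kilobase (y axes) in every CSN library by age in days (x axis), wild type in blue and Sod1G86R in red, with lines at group means. At 90 days the 4 Sod1G86R libraries of Grin2b, 8871 to 10832, lie below the 4 wild-type libraries, 12868 to 19680.

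Control cells showed 0 of 39 members past the threshold for genotype with limma, where 0.0716% of all genes passed. At an unadjusted p under 0.05 stood 5 members, edgeR called 0 and DESeq2 called 2, Grm3 and Cacng4. Of all 20944 genes edgeR called 21 and DESeq2 called 174. The 3 smallest p-values were those of Grm3 (log2 -0.74, adjusted p = 0.175), Cacng4 (-0.95, 0.274) and Shisa9 (-0.54, 0.334). Shisa9 and Cacng4, which passed in CSN, thus had log2 values of the same sign in control cells. Of 12 GABAergic neuron markers 1 passed in control cells, Gad2, at log2 2.28 (adjusted p = 0.0351), and their sum was 4165 to 41719 normalised reads in Sod1G86R against 3451 to 15192 in wild type. Their part in the values of the receptor genes was not tested.

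The test of the difference asked whether the genotype effect was unequal between CSN and control cells. It called 1 of 39 members, Grm3, where 6.26% of all genes passed. Grm3 (chromosome 5, 9485541 to 9725170, minus strand) was 1221 to 3068 (median 1745) in Sod1G86R and 1173 to 2977 (median 1651) in wild-type CSN, and 1782 to 3932 (median 2519) in Sod1G86R and 967 to 11990.1 (median 3933) in wild-type control cells. The wild-type control libraries spread most widely, and all 4 ranges overlapped. The difference of the log2 effects was 0.86 ± 0.25 SE (limma adjusted p = 0.0359), and neither effect passed in its own cell type. Summed astrocyte markers were 20649.5 to 112276 in Sod1G86R and 20052 to 306326 in wild-type control cells, and with the glial marker level as a covariate the difference was 0.89 (adjusted p = 0.0218). Leaving out any 1 of 16 of the 57 libraries, dropping the filter on low genes, quantile normalisation, or a covariate for mitochondrial share or detected genes ended the call, the last 2 with an adjusted p of 0.9997 and 0.599. With those 2 covariates, 0 and 1 of all 22032 genes passed.

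Grik3 (log2 -0.96, adjusted p = 0.0868) and Grin2b (-0.42, 0.0923) came next and did not pass. Of the 7 genes whose cell-type difference passed in 1 genotype alone, 0 passed this test. Cnih3, Shisa9, Cacng4 and Grik4 did not pass either, so their genotype effects are not shown to differ between the cell types.

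Receptor partners were tested for genotype in CSN as well, where 12.8% of all genes were higher and 6.31% lower, and 0.131% passed once the share of mitochondrial reads was a covariate. Of 24 assembly and trafficking partners, 9 were higher in Sod1G86R CSN and 1 lower, with a list median of 0.30. Abhd6 (log2 0.75), which limits the delivery of AMPA receptors to the surface, the cornichon Cnih1 (0.67), the synapse differentiation protein Syndig1 (0.68) and the endoplasmic reticulum retention factor Rer1 (0.50) were among the higher. Of 25 scaffolds and kinases, 5 were lower and 1 higher. Shank3 (-0.57), Shank1 (-0.49), Homer2 (-0.60) and Camk2d (-1.21) were among the lower. Camk2d lies on chromosome 3 (126596302 to 126846326, plus strand). Of the 35 other genes tested within 2 Mb, 30 were below 0 in CSN (median -0.32, 8 lower and 1 higher past the threshold), against 17 of 38 in control cells. The median over all genes in CSN was -0.05. Neighbours were counted for this gene alone, and a cause was not tested.

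Of 22 synaptic organisers, Nptxr (-0.66), the receptor of neuronal pentraxins, Elfn1 (-0.65) and Nrxn2 (-0.48) were lower and Lrrtm3 was higher (0.31). G protein signalling held 3 of 18 higher, among them Plcb4 (0.54) and Gnai1 (0.47), and glutamate transport 1 of 13, the neuronal transporter Slc1a1 (0.33), shares near that of all genes. In control cells 0 genes of these 5 lists passed. The difference between cell types was past the threshold for Cnih1 (0.71), Rer1 (0.72), Cpt1c (0.77), Porcn (0.69), Abhd6 (0.77), Gnai1 (0.72) and Slc1a1 (0.59). These were 5 of 24 assembly and trafficking partners, 1 of 18 G protein signalling genes and 1 of 13 glutamate transport genes. Of 25 scaffolds and kinases 0 passed, as did 0 of 22 synaptic organisers, where 6.26% of all genes passed. In the same test 3 of 12 GABAergic neuron markers passed, Gad2 (-2.28), Gad1 (-2.09) and Slc32a1 (-0.65), and their part in the other differences was not tested. When mitochondrial share was added to the fit, 0 of all 22032 genes passed this test. Adding the number of detected genes instead left 1.

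Age was compared in wild type, 105 against 30 days. In CSN 0 of 38 members passed with limma, as did 0% of all genes, with 2 members at an unadjusted p under 0.05 and 0 by edgeR and DESeq2. The smallest p-values were those of Grm3 (log2 0.69, adjusted p = 0.654), Grid1 (-0.54, 0.669) and Shisa7 (-0.38, 0.823). In control cells 0 of 39 passed, where 0.00955% of all genes did, with 4 at an unadjusted p under 0.05 and 0 by edgeR and DESeq2. Cnih2 (-1.86, 0.295), Grm2 (-1.18, 0.325) and Cnih3 (-1.55, 0.353) had the smallest p-values there. With 4 libraries at each end, differences with age in the Grin2a and Gria2 shares did not pass in either cell type. The exact test cannot go below an unadjusted p of 0.0286. After adjustment over all share tests, an age difference alone at that floor would not pass. These tests therefore cannot decide whether the shares change with age. The Grin2a share in CSN had a difference of 5.06 percentage points (exact permutation test, p = 0.229, adjusted p = 0.591), which ran from 2.42 to 8.07 when 1 library was left out.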

How the data were processed

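RNA of 57 libraries was read as cDNA made with the SMART-Seq v4 kit. Per the series' design text, reads were aligned to GRCm38 with STAR 2.7.0 and counted per gene of Ensembl 87. Also named, with no role, in the submitters' processing notes are mm10 and edgeR. The deposited signal values are normalised counts per the labels, for 45337 genes, by a method not given in the sources used here. Within each library 100% of values were whole multiples of 1 step (tolerance 0.001), from which reads were recovered. Without molecular identifiers, PCR copies count as reads.

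Genes at 34.6 or more (1 ppm of the median column total) in at least 3 libraries were kept, and limma 3.58.1 (R 4.3.3) fitted a mean per group to log2(value + 34.6), using a robust prior with a trend. Both cell types were fitted together for cell type and the difference of genotype effects, and apart for genotype and age. P-values were adjusted by Benjamini-Hochberg over all genes tested, with a threshold of 0.05. Members at an unadjusted p under 0.05 were counted without the share of all genes at that level, so whether those counts are in excess was not tested. Shares used levels per kilobase of all annotated exons (GENCODE M21) and two-sided permutation tests within ages, adjusted over 12 tests. Full statistics are given for Gria1 to Gria4, Grin1, Grin2a, Grin2b and the 12 smallest p-values between cell types in wild type, and elsewhere for up to 8 that passed, or for the 3 smallest p-values. Some of the genes and shares that these rules select are not reported here.

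The 41 genes, the gene lists and the tests were chosen with earlier results of these data known. Alternatives were pseudocounts 0.25 and 4 times as large, no filter and a stricter filter, TMM, quantile normalisation, covariates (mitochondrial share, glial markers, detected genes), replicate blocks, the count models of edgeR 4.0.16 and of DESeq2 1.42.0, shares without division by length, and leaving out each library. The pan-neuronal scale and the fits without 90-day libraries were added later. Libraries of an animal are paired across cell types by their labels, but deviations of the 25 pairs correlated at only -0.318 to 0.282 (median 0.0385), so the main fit took them as independent. Simulated counts with known fold changes were used to check each fit.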

Additional observations from a re-analysis of the deposited data

Results flagged for a closer look

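Of 10 checks in groups of 4 libraries (Grin2b reads in CSN at 90 days, and the Grin2a and Gria2 shares in wild type at 30 and 105 days), where chance alone marks about 1 group in 20, 1 held a library far from the others. In wild-type CSN at 105 days, 1 library had a Grin2a share of Grin2a plus Grin2b of 52.5%, the lowest of 4 with a median of 64.2% and a highest value of 65.3%.

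The genotype effect on Grm3 differed between the cell types by 0.86 on the log2 scale (limma adjusted p = 0.0359).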

How the results depend on the processing

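Left-out libraries moved the counts as follows: 34 to 36 for CSN against control cells in wild type, 30 to 32 in Sod1G86R, 1 to 9 for genotype in CSN, 0 to 5 at 90 days, 0 to 2 for the difference between cell types and 0 to 2 for age in control cells. For the cell types, the glial covariate gave 18 calls in wild type and 16 in Sod1G86R and the mitochondrial covariate 15 in wild type. Of 22032 genes tested, 3159, 3181 and 5175 passed in that order. Genotype in CSN gave 10 calls with DESeq2, 8 after quantile normalisation and 3 with a pseudocount 4 times as large. It gave 1 without the filter, 1 without the 90-day libraries and 0 with each covariate (mitochondrial share, glial marker level, detected genes). Of 19093 genes tested, 4699 passed with DESeq2, 2670 after quantile normalisation and 3516 with that pseudocount, against 3643 in the main fit. Without the filter 2173 of 44478 passed, and without the 90-day libraries 1134 of 18678. With the covariates, in that order, 25, 2540 and 1582 of 19093 passed. At 90 days the counts were 4 with DESeq2, 3 with the stricter filter, 2 with edgeR, TMM, quantile normalisation or the glial covariate, and 0 without the filter or with the mitochondrial covariate. Of 19093 genes tested at that age, 1932 passed with DESeq2, 894 with edgeR, 440 after quantile normalisation and 1163 with the glial covariate. TMM called 1165 of 19058 and the stricter filter 1274 of 12108. Without the filter 4 of 44478 passed, and with the mitochondrial covariate 4 of 19093. The difference between cell types gave 2 calls after quantile normalisation (Grin1 and Grin2b, lower) and 0 without the filter or with a covariate for mitochondrial share or detected genes. Of all 22032 genes, 392 passed this test after quantile normalisation, 0 with the mitochondrial share and 1 with detected genes. Without the filter 392 of 45303 did. DESeq2 gave 2 calls for genotype in control cells, where it called 174 of all 20944 genes. Without the 90-day libraries the genotype difference in the Grin2a share was 4.39 points. The cause was not tested in any of these cases. Other counts stayed within 1.5 times.

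Among the genes reported here that passed, signs reversed in the cell-type comparisons alone. Relative to pan-neuronal genes the log2 values in wild type were Cacng2 -0.55, Cnih2 -0.49, Gria2 -0.58, Gria3 -0.21, Grid1 -0.40, Grik2 -0.37, Grik4 -0.58, Grik5 -0.26, Grin2a -0.83, Grin2b -0.68, Grm5 -0.33, Grm7 -0.87 and Shisa7 -0.89, and in Sod1G86R Cacng2 -0.61, Cacng7 -0.75, Cacng8 -0.57, Cnih2 -0.34, Gria2 -0.67, Gria3 -0.33, Grid1 -0.22, Grik5 -0.084, Grin2a -0.83 and Grm5 -0.61. With the glial covariate they were Grin2a -0.51 and Grin2c 0.47 in wild type and Grin2a -0.60, Grin2c 0.57, Grm3 0.40 and Grm5 -0.14 in Sod1G86R, and with the mitochondrial covariate Cacng3 0.40, Grin2a -0.27 and Grin2b -0.0084 in wild type and Cacng3 0.13 and Grin2a -0.017 in Sod1G86R.

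A replicate block over libraries of the same age and number in both genotypes gave 8 calls for genotype in CSN, 3 higher and 5 lower, and 4 at 90 days. Of all 19093 genes, 4862 passed with that block as the mean of ages and 1846 at 90 days. The numbers pair nothing by the labels, and deviations of the 16 pairs correlated at -0.158 to 0.483, over 0.1 in 7. The block by animal across cell types left the counts at 35 and 32 and at 1 for the difference. No paired analysis was possible for age because the ages share no animals. Low reads limit Grik1, Grin3b, Grm6, Cacng5 and Grin2c in CSN.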
